A study of Mus musculus with 6 samples.

Results

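The genes described here take up, export, store and sense iron. They were chosen by symbol, as every row whose name was Tfrc, Hfe, Steap3, Slc11a2, Slc40a1, Fth1, Ftl1, Aco1, Ireb2 or Fbxl5, and all 10 were found among the 25330 genes of the deposited tables. The samples were 6 RNA-seq libraries of AML12 cells, a mouse hepatocyte line that grows in culture, all of them wild type (WT). In the Control group, 3 libraries came from cells kept at 21% oxygen and 5% CO2 in DMEM/F12 with 10% fetal bovine serum, 40 ng/mL dexamethasone and a supplement of insulin, transferrin and selenium. In the H6R2 group, 3 libraries came from cells held for 6 h at 1% oxygen and 5% CO2 in medium without serum and glucose. They were then returned to normal oxygen for 2 h, a culture model of ischemia and reperfusion. H6R2 cells therefore differed from Control cells in serum and glucose as well as in oxygen. Whether dexamethasone and the supplement, with its insulin and transferrin, were in the hypoxia medium is not given in the sources used here, so the effects of oxygen, serum, glucose, dexamethasone and the supplement cannot be told apart. The question that the comparison answers for these genes is which of them changed in RNA abundance after hypoxia and reoxygenation.

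Iron travels in plasma bound to transferrin, which enters cells through the transferrin receptor and gives up its iron in the acidic endosome. Inside the cell, iron that is not used is kept in the ferritin shell, and ferroportin is the only known exporter. The balance is set largely after transcription by the iron regulatory proteins IRP1 and IRP2. When iron is scarce they bind a hairpin called the iron-responsive element (IRE), which protects the receptor mRNA from decay when it lies in the 3′ UTR and blocks translation when it lies in the 5′ UTR. Read counts report the amount of RNA and not its translation. The hepatocyte is a main iron store of the body and the source of hepcidin, the hormone that limits ferroportin.

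Hairpins of the IRE type were searched over the whole length of protein-coding transcripts (GENCODE M21, GRCm38), since the regulatory proteins bind hairpins of this kind. The letters searched were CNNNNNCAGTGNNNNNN on the transcript strand, with 5 paired bases (G-T pairs allowed) between the bulged C and the loop. In the sequences below, each 30 bases long and written 5′ to 3′, capitals mark the bulged C and the 6 bases of the loop.
Tfrc, 3′ UTR, chr16:32631218-32631247: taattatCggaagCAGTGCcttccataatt
Tfrc, 3′ UTR, chr16:32631597-32631626: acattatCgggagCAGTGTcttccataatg
Tfrc, 3′ UTR, chr16:32631662-32631691: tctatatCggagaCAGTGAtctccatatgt
Tfrc, 3′ UTR, chr16:32631709-32631738: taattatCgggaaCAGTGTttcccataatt
Slc40a1, 5′ UTR, chr1:45925465-45925494: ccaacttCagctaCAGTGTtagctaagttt
Fth1, 5′ UTR, chr19:9982731-9982760: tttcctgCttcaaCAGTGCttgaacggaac
Ftl1, 5′ UTR, chr7:45459779-45459808: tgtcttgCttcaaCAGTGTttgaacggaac
Slc11a2, 3′ UTR, chr15:100395152-100395181: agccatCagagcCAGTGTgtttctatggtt

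The Tfrc sites lie on the plus strand in the last of its 19 exons, and the Fth1 site on the plus strand in exon 1 of 4. The Slc40a1 site (exon 1 of 8), the Ftl1 site (exon 1 of 4) and the Slc11a2 site (exon 16 of 16, present in 1 annotated transcript) lie on the minus strand. All of these sites fall inside exons of the deposited gene models. With a fully paired stem, 4 of the 10 members held a site, against 294 of 21877 genes searched (1.34%). The letters are those of the known IRE, which several of these genes were already known to carry, so this contrast is not a test. All sites found in the members lay in a UTR. The counts over all genes, here and in the next search, take a match anywhere in a transcript, coding sequence included. The Slc11a2 hairpin was found only when 1 unpaired base was allowed on the 3′ side of the stem, a search added because the former had found none in this gene, and 1033 genes (4.72%) then held a site. A match is a description of letters and not evidence of binding. No such hairpin was found in Hfe, Steap3, Aco1, Ireb2 or Fbxl5.

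Library totals lay between 20438746 and 21854790 counts, and 14020 genes passed the filter on low counts, all 10 members among them. Control replicate 1 stood apart from the others, since the summed count of 6 genes of adult liver was 827 in it, 135 and 212 in the other Control libraries, and 32 to 44 in H6R2. Changes of the members without that library are given beside each result. Of 12 hepatocyte markers, Krt8 and Krt18 carried most of the summed count, which was 89135 to 97810 in Control and 127284 to 135532 in H6R2, while Alb (log2 fold change -2.85) and Ttr (-3.07) were lower in H6R2. Markers of other cell types were near 0 for endothelium (summed counts 3 to 10 in every library) and erythroid cells (8 to 20). The macrophage list summed to 64 to 76 counts in Control and 174 to 216 in H6R2, with Adgre1, Ptprc and Clec4f at 3 counts or fewer in every library. Csf1r held most of it in Control (42 to 57 counts, and 60 to 79 in H6R2) and Cd68 in H6R2 (16 to 22 counts in Control and 113 to 137 in H6R2). Stellate cell markers summed to 12 to 24 counts. Cholangiocyte markers were abundant and higher in H6R2, with sums of 27782 to 31681 in Control and 49854 to 54203 in H6R2, and Krt7 (log2 fold change 0.79), Krt19 (1.00) and Sox9 (160 to 200 counts in Control and 896 to 1013 in H6R2) all passed the test. The part of these differences in the results below was not tested. The labels do not say that replicates were separate cultures, so p-values measure the spread between these libraries, which may be technical.

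After hypoxia and reoxygenation, RNA of the transferrin receptor, of the transporter DMT1 and of the exporter ferroportin fell, with Tfrc and Slc11a2 falling the most among the 10 genes. Ferritin heavy chain RNA did not pass the test, and ferritin light chain RNA fell slightly. Of the sensors, Ireb2 fell, Fbxl5 rose, and Aco1 did not pass the test. In all, 7 of 10 members had an adjusted p under 0.05 in edgeR's quasi-likelihood test, 6 of them lower and 1 higher. This count is close to the background, since 62.8% of all tested genes passed the same threshold, 31.8% lower and 31.0% higher. Past a fold change of 2 as well, 2 of 10 members were called, both lower, against 8.52% of all genes in either direction, 4.27% lower and 4.25% higher. The scaled counts of the groups did not overlap for 8 of 10 members, against 65.9% of all genes. The median log2 fold change of the members was -0.27, against -0.01 over all tested genes. In bulk RNA, fewer cells of a kind and less RNA per cell cannot be told apart.

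**Figure D1:**
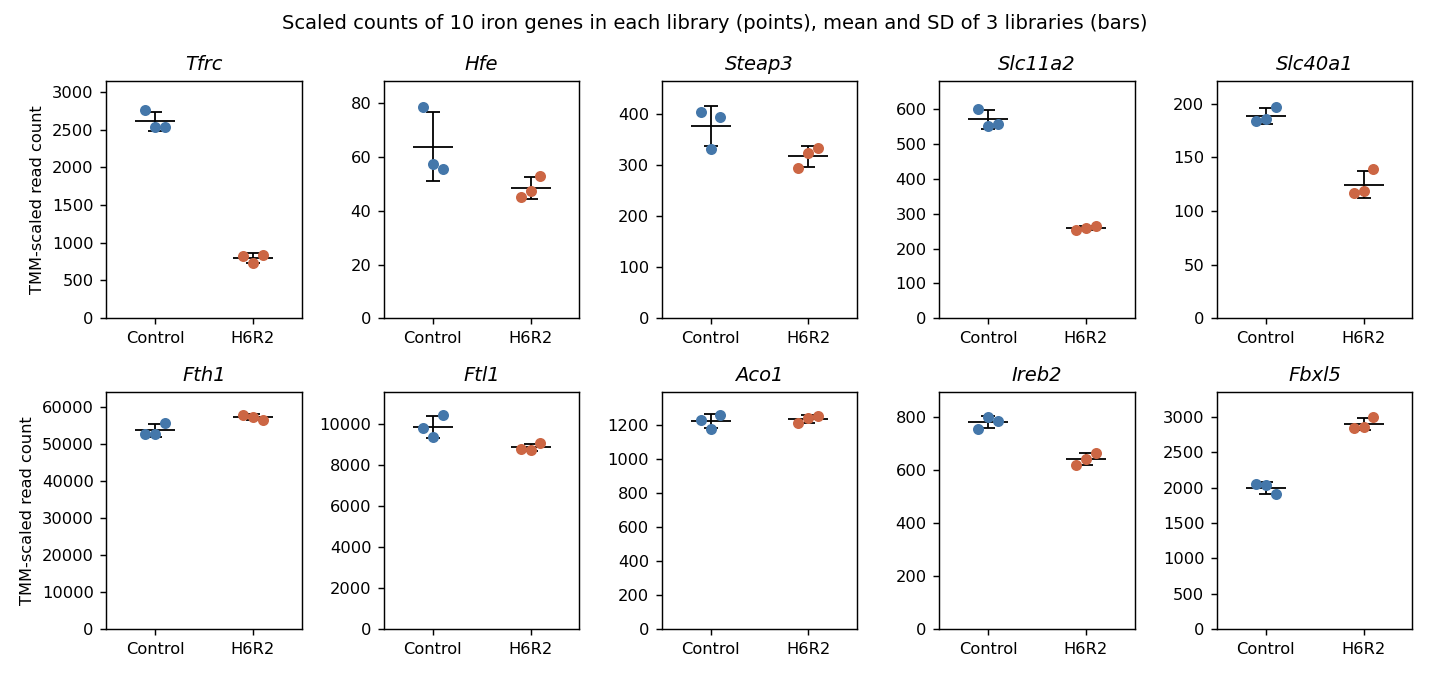
Counts scaled to the mean library (vertical axes, starting at 0) of the 10 iron genes in the 3 Control and the 3 H6R2 libraries; points are libraries, and bars give the mean and SD. The groups lie far apart for Tfrc and Slc11a2, and they overlap for Steap3 and Aco1.

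Tfrc (chr16:32608920-32632794, plus strand) encodes the transferrin receptor, the entry route of transferrin-bound iron. Its counts were 2912, 2605 and 2690 in Control (replicates 1 to 3, in this order throughout) and 770, 676 and 840 in H6R2. The lowest Control library was far above the highest H6R2 library. Scaled by the trimmed mean of M values (TMM) to the mean effective library size, its level was 2610 ± 127 (SD, n = 3) in Control and 799 ± 61.0 (SD, n = 3) in H6R2. It was thus 3.26-fold lower, with a log2 fold change of -1.71 ± 0.05 (SE; 95% interval -1.82 to -1.60) and an adjusted p of 1.13e-23 in edgeR. Among the 14020 tested genes, Tfrc ranked 98 from the most strongly lowered. Without Control replicate 1 the log2 fold change was -1.67. The receptor mRNA is the one in which the search found 4 hairpins in the 3′ UTR, printed above.

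Slc11a2 (chr15:100387898-100425072, minus strand) encodes DMT1, the divalent metal transporter that moves ferrous iron out of the endosome and, in the gut, across the cell membrane. Its counts were 636, 567 and 594 in Control and 236, 241 and 266 in H6R2. All H6R2 libraries lay below all Control libraries, and the H6R2 libraries lay close together. The scaled level was 571 ± 26.8 in Control and 2.20-fold lower in H6R2, at 260 ± 5.82 (SD, n = 3 each). Its log2 fold change was -1.14 ± 0.08 (SE; 95% interval -1.29 to -0.98, edgeR adjusted p = 6.43e-15), and -1.10 without Control replicate 1. A share of 6.33% of its exon bases overlaps Gm5475 on the opposite strand, a gene with only 15 to 40 counts per library.

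Slc40a1 (chr1:45908068-45926523, minus strand) encodes ferroportin. Its counts were low, at 194, 190 and 209 in Control and 108, 110 and 139 in H6R2, and the groups did not overlap. The scaled level was 189 ± 7.12 in Control and 1.51-fold lower in H6R2, at 125 ± 12.4 (SD, n = 3 each). On the log2 scale the change was -0.59 ± 0.11 (SE; 95% interval -0.83 to -0.36, edgeR adjusted p = 2.82e-05), and -0.61 without Control replicate 1. RNA of the exporter, of Tfrc and of Slc11a2 was thus lower in the same libraries.

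Steap3 (chr1:120190757-120272705, minus strand) encodes the endosomal ferrireductase that reduces iron released from transferrin before DMT1 carries it out. Its counts were 426, 340 and 419 in Control and 273, 299 and 333 in H6R2. After scaling, Control replicate 2 (332) lay just under H6R2 replicate 3 (333), so the groups overlapped. The scaled level was 376 ± 39.1 and 316 ± 20.1 (SD, n = 3 each), with a log2 fold change of -0.25 ± 0.09 (SE, edgeR adjusted p = 0.0121). The call was lost, with a similar change, when single libraries were left out: the log2 fold change was -0.20 without Control replicate 1 (edgeR adjusted p = 0.0737), -0.22 without Control replicate 3 (edgeR adjusted p = 0.0526) and -0.20 without H6R2 replicate 1 (edgeR adjusted p = 0.0671).

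Hfe (chr13:23702034-23710854, minus strand) encodes an MHC class I-like protein that binds the transferrin receptor and, in hepatocytes, takes part in hepcidin control. It had the fewest counts of the members, 83, 59 and 59 in Control and 42, 44 and 53 in H6R2. The scaled values did not overlap, but Control replicate 1, the library that stood apart, was well above the other Control libraries (78.6 against 57.5 and 55.5). The log2 fold change was -0.39 ± 0.19 (SE) and did not pass the test (edgeR adjusted p = 0.0737). Without Control replicate 1 it was -0.22 (edgeR adjusted p = 0.392).

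Fth1 (chr19:9982703-9985092, plus strand) encodes the ferritin heavy chain, which oxidizes iron as it enters the shell, and Ftl1 (chr7:45457944-45459884, minus strand) the light chain, which helps form its mineral core. Fth1 was the most abundant member, with 55604, 54125 and 59264 counts in Control and 53802, 53275 and 56552 in H6R2. Its scaled level was 53744 ± 1776 in Control and 57305 ± 728 in H6R2 (SD, n = 3 each). The log2 fold change was 0.09 ± 0.04 (SE; 95% interval 0.0011 to 0.18) and missed the threshold (edgeR adjusted p = 0.0728). Its sign depended on the scaling, since with library totals alone it was -0.01 (edgeR adjusted p = 0.799). Without Control replicate 1 it was 0.08.

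Ftl1 had 10348, 9593 and 11083 counts in Control and 8147, 8111 and 9068 in H6R2. After scaling these became 9863 ± 542 and 8861 ± 174 (SD, n = 3 each), and the highest H6R2 library was below the lowest Control library. The log2 fold change was -0.15 ± 0.04 (SE; 95% interval -0.25 to -0.06, edgeR adjusted p = 0.00319), and -0.16 without Control replicate 1. Counts of Ftl1 are uncertain, because 34.6% of its exon bases overlap Gm10252 on the opposite strand (3203 to 4147 counts per library) and Gm22133 on the same strand (1615 to 2493), and the strand setting of the counting is not given in the sources used here. Near-identical ferritin pseudogenes held few counts, at most 369 in a library. Adding them to their parent gene, an alternative chosen after seeing the data, left the log2 fold change at -0.16 (edgeR adjusted p = 0.00304).

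The ratio of Fth1 to Ftl1 within a library does not depend on scaling. It was 5.37, 5.64 and 5.35 in Control and 6.60, 6.57 and 6.24 in H6R2, with means of 5.45 ± 0.163 and 6.47 ± 0.203 (SD, n = 3 each). All H6R2 libraries had a higher ratio than all Control libraries. The log2 difference was 0.25, with p = 0.1 in a two-sided exact permutation test, which is the smallest p that 3 against 3 libraries can give. Without Control replicate 1 it was 0.24.

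Aco1 (chr4:40143081-40198338, plus strand) encodes IRP1, which is a cytosolic aconitase while it holds an iron-sulfur cluster and an RNA-binding protein without it. Its counts were 1298, 1207 and 1337 in Control and 1123, 1151 and 1253 in H6R2, and the scaled values of the groups overlapped. Scaled levels were 1222 ± 41.2 and 1234 ± 22.2 (SD, n = 3 each). The log2 fold change was 0.01 ± 0.05 (SE; 95% interval -0.09 to 0.12, edgeR adjusted p = 0.812), and its sign turned with library totals alone (-0.09) and with upper quartile scaling (-0.06). Without Control replicate 1 it was 0.02.

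Ireb2 (chr9:54863789-54912530, plus strand) encodes IRP2, which carries no cluster and is removed by degradation when iron is sufficient. Its counts were 797, 822 and 835 in Control and 575, 596 and 666 in H6R2, without overlap. The scaled level was 781 ± 24.0 in Control and 643 ± 23.1 in H6R2 (SD, n = 3 each). This gave a log2 fold change of -0.28 ± 0.06 (SE; 95% interval -0.40 to -0.16, edgeR adjusted p = 0.000109), and -0.30 without Control replicate 1. Against Aco1 in the same library, the count ratio of Aco1 to Ireb2 was 1.63, 1.47 and 1.60 in Control and 1.95, 1.93 and 1.88 in H6R2. RNA of the 2 regulatory proteins thus did not move in proportion, by a log2 difference of 0.30 in the ratio (two-sided exact permutation p = 0.1, the smallest possible), or 0.33 without Control replicate 1.

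Fbxl5 (chr5:43744615-43821638, minus strand) encodes the F-box protein that binds iron and oxygen and marks IRP2 for degradation. It was the only member called higher, with 2170, 2084 and 2024 counts in Control and 2639, 2648 and 3001 in H6R2. Every H6R2 library was above every Control library. The scaled level was 1998 ± 80.5 in Control and 1.45-fold higher in H6R2, at 2899 ± 86.8 (SD, n = 3 each), with a log2 fold change of 0.54 ± 0.05 (SE; 95% interval 0.45 to 0.63, edgeR adjusted p = 1.54e-12). Without Control replicate 1 it was 0.56. An overlap with Bst1 on the opposite strand covers 1.01% of its exon bases.

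**Figure D2:**
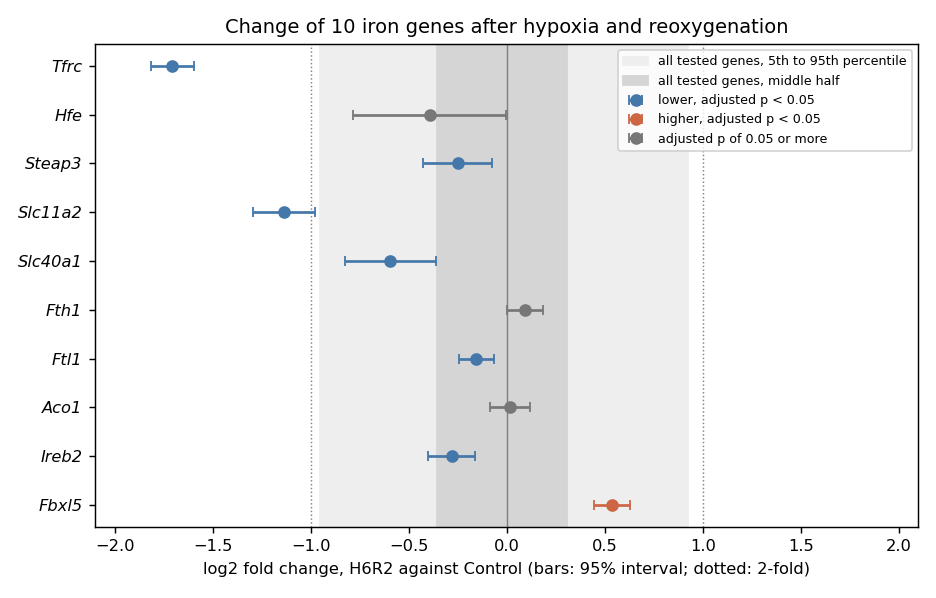
Log2 fold change of H6R2 against Control for the 10 iron genes (points) with 95% intervals (bars), over the 5th to 95th percentile (light band) and the middle of the distribution between its quartiles (dark band) of all tested genes; dotted lines mark a fold change of 2. Tfrc (-1.71) and Slc11a2 (-1.14) lie outside the light band, while Steap3, Fth1, Ftl1, Aco1 and Ireb2 lie inside the dark one.

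Grouped by the hairpins printed above, both members with a site in the 3′ UTR were lowered, Tfrc by a log2 fold change of -1.71 and Slc11a2 by -1.14. The 3 members with a site in the 5′ UTR had log2 fold changes of -0.59 (Slc40a1), -0.15 (Ftl1) and 0.09 (Fth1). The 5 members without a site ranged from -0.39 (Hfe) to 0.54 (Fbxl5). With so few genes in each group this is a description, and no test was made. Counts are per gene, so RNA that holds a site was not counted apart from other transcripts of the gene. The Slc11a2 site is present in 1 annotated transcript. Of other transcripts known to carry an IRE, Epas1, which encodes the hypoxia factor HIF-2α, fell (log2 fold change -1.58, edgeR adjusted p = 2.00e-12), from 197, 226 and 200 counts in Control to 60, 54 and 76 in H6R2. Cdc14a, which encodes a phosphatase, fell (-0.34, edgeR adjusted p = 0.00278), and Cdc42bpa, which encodes a kinase of the cytoskeleton, rose (0.70, edgeR adjusted p = 1.67e-16). All 4 of this list passed the test, 2 higher and 2 lower, where 62.8% of all tested genes passed it.

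The promoters of the members were searched for the core letters of hypoxia response elements, since Tfrc is a known target of hypoxia factors. RefSeq windows of 250 bases before to 50 bases after a start (GRCm38.p6) were given for 7 of 10 members, 12 windows in all. A member is named where any of its windows held the letters, while the shares are of single windows. ACGTG, on either strand, was found in Tfrc among these, and in 19.6% of the 32851 promoters. The site is shown with its 5 letters in capitals.
Tfrc promoter, chr16:32608882-32608910, plus strand: ctcggtaggtgtACGTGcggaaggaagtg
The capitals begin 2 bases before one RefSeq start and run across it, and they begin 228 bases before the other. The match is a sequence description, and no binding was measured. The related letters GCGTG were present in Tfrc, Steap3, Ftl1 and Fth1 and in 32.4% of all promoters. TGACNNNGC, the core of antioxidant response elements, was present in Hfe and in 12.4% of all promoters.

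Levels of different genes were compared as RPKM, read counts scaled to gene length and library total. In Control the order was Fth1 (3040 ± 148), Ftl1 (361 ± 24.6), Tfrc (20.7 ± 0.79), Aco1 (13.3 ± 0.60), Fbxl5 (10.0 ± 0.25), Slc11a2 (4.40 ± 0.17), Ireb2 (4.03 ± 0.16), Steap3 (3.23 ± 0.34), Slc40a1 (1.03 ± 0.06) and Hfe (0.875 ± 0.16; all SD, n = 3). Of neighbours in that order, Slc40a1 and Hfe overlapped between libraries, and the others did not. In H6R2 the order of the first genes was Fth1 (3013 ± 12.0), Ftl1 (301 ± 8.70), Fbxl5 (13.6 ± 0.53), Aco1 (12.5 ± 0.33) and Tfrc (5.89 ± 0.48). Tfrc thus stood in place 3 in Control and in place 5 in H6R2, and Fbxl5 moved from place 5 to place 3. Slc11a2, at 1.86 ± 0.06, came after Ireb2 (3.09 ± 0.14) and Steap3 (2.52 ± 0.18) in H6R2. Slc40a1 (0.631 ± 0.07) and Hfe (0.619 ± 0.06) again overlapped.

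**Figure D3:**
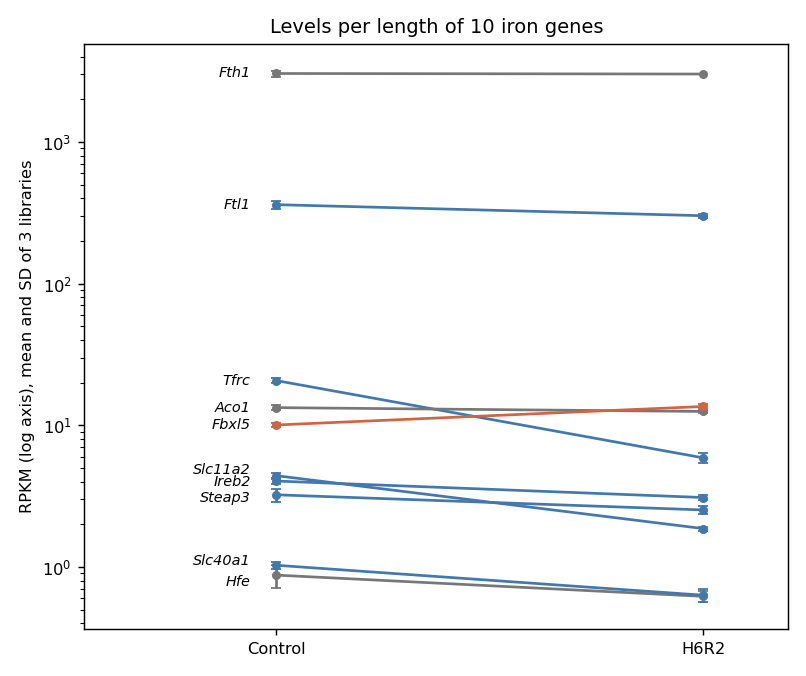
RPKM (log axis) of the 10 iron genes in Control and H6R2, as mean and SD of 3 libraries, with lines joining the groups; blue marks genes called lower, red called higher and grey not called. Fth1 and Ftl1 stay far above the rest, while the line of Tfrc crosses those of Aco1 and Fbxl5.

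Other genes of iron handling were taken from 9 lists of 103 symbols, with 2 genes entered under both an older and a newer symbol, and 83 genes could be tested. Of these, 35 were higher, 28 were lower and 20 did not pass the test, with a median log2 fold change of 0.04. The share called was 75.9%, against 62.8% of all genes. The median of all genes differed between scalings, at -0.01 with TMM and -0.12 with library totals alone, and small changes are to be read relative to it.

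In the list of other uptake and reduction genes, 6 of 10 tested genes were higher and 2 were lower, with a median of 0.34. Steap4, a metalloreductase of the same family as Steap3, had 54, 35 and 55 counts in Control and 4, 3 and 1 in H6R2. It had the lowest fitted log2 fold change of all tested genes, at -3.97 (edgeR adjusted p = 1.18e-10). Summed over the libraries of a group, its 144 and 8 counts gave a level 16.4 times lower in H6R2 (95% exact interval 8.08 to 38.6, for counting error only). Trf, which encodes transferrin itself, had 503, 390 and 498 counts in Control and 176, 117 and 159 in H6R2 (2.79-fold lower, edgeR adjusted p = 1.76e-09). Its log2 fold change was -1.48, and -1.42 without Control replicate 1. Of the exon bases of Trf, 63.5% overlap Gm20425 on the same strand, so its count is uncertain. Lcn2, which encodes a protein that captures iron-binding siderophores, rose from 298, 344 and 384 counts to 743, 773 and 839 (log2 fold change 1.34, edgeR adjusted p = 2.70e-17).

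Of 9 tested genes of ferritin turnover and iron chaperones, 5 were higher and 1 was lower, with a median of 0.19. Ncoa4, the receptor that delivers ferritin to the autophagosome, rose by a log2 fold change of 0.61 (edgeR adjusted p = 5.74e-12), from 951, 899 and 1033 counts to 1309, 1332 and 1343. Tax1bp1, another autophagy receptor, rose by 0.62 (edgeR adjusted p = 1.30e-14), and Bola2, which takes part in cytosolic iron-sulfur cluster delivery, fell by 0.35 on the log2 scale (edgeR adjusted p = 0.000142). Of 5 partners of the FBXL5 ligase, 1 was higher and 2 were lower, with a median of 0.04. The ligase subunits Skp1a (-0.36, edgeR adjusted p = 5.18e-09) and Rbx1 (-0.47, edgeR adjusted p = 6.25e-09) were lower, and the scaffold Cul1 was higher (0.14, edgeR adjusted p = 0.00820), a call that was lost with other scalings.

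In the list of hepcidin control, 8 of 13 tested genes were higher and 3 were lower, with a median of 0.34. The inhibitors of BMP signalling went both ways, with Smad6 lower (log2 fold change -1.43, edgeR adjusted p = 2.40e-06) and Smad7 higher (1.41, edgeR adjusted p = 2.07e-14). Id1, a target of BMP signalling, was higher (0.63, edgeR adjusted p = 0.000131). Hamp, the gene of hepcidin, was at 0 counts in 5 libraries and at 7 in Control replicate 1, so no comparison was possible at this depth. Tfr2, the receptor related to Tfrc that senses iron in liver, had 3 counts or fewer in every library.

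Haem holds iron as well. Of 8 tested genes of haem recycling and iron oxidation, 1 was higher and 5 were lower, with a median of -0.23, and of 9 genes of haem synthesis, 1 was higher and 6 were lower, with a median of -0.25. Hmox1, the inducible haem oxygenase that frees iron from haem, was the gene that rose in the former list, from 1190, 1132 and 1286 counts to 3039, 3037 and 2988 (2.77-fold, edgeR adjusted p = 2.13e-23). The haem transporter Slc48a1 was lower (-0.86, edgeR adjusted p = 3.54e-15). Slc46a1, also on this list, was lower (-1.42, edgeR adjusted p = 0.000208) on low counts, with 54, 43 and 30 in Control and 21, 7 and 15 in H6R2. In haem synthesis, Uros (-1.16, edgeR adjusted p = 7.24e-08) and the mitochondrial transporter Abcb10 (-0.65, edgeR adjusted p = 2.13e-07) were lower, and Cpox was higher (0.69, edgeR adjusted p = 9.65e-14).

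Genes of mitochondrial iron and iron-sulfur clusters were divided, with 7 of 20 higher, 6 lower and a median of -0.06. Nfs1, the cysteine desulfurase that supplies the sulfur, was lower (-0.45, edgeR adjusted p = 8.74e-06), and the electron carrier Fdx1 (0.55, edgeR adjusted p = 1.13e-07) and the late-acting Nfu1 (0.54, edgeR adjusted p = 4.88e-08) were higher. Among 5 regulators linked to oxygen and haem, 4 were higher and 1 was lower. These included Hif1a (0.70, edgeR adjusted p = 1.09e-16), its partner Arnt (0.90, edgeR adjusted p = 3.37e-18) and Nfe2l2, which encodes the antioxidant regulator NRF2 (0.67, edgeR adjusted p = 5.05e-15).

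**Figure D4:**
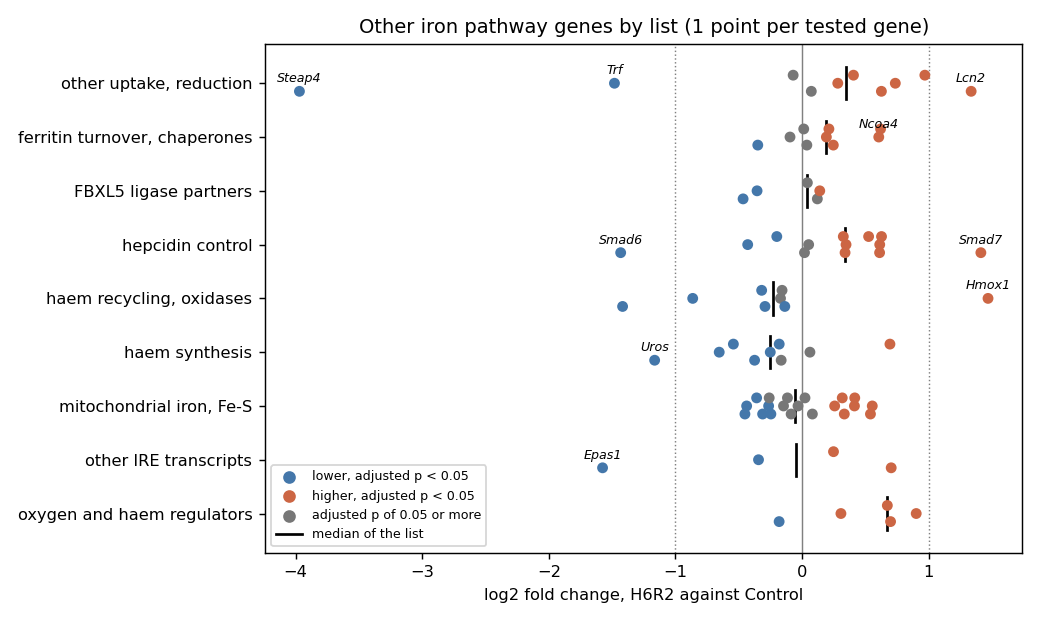
Log2 fold change of H6R2 against Control for each tested gene of the 9 other lists (points, coloured by call), with the median of each list (black bars) and dotted lines at a fold change of 2. Lists spread to both sides of 0; Steap4 (-3.97) is the most distant point, and Hmox1 (1.47) is the highest.

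The results for the 10 members were computed again under 15 alternatives of scaling, filter, model, block and left-out library. For 6 members (Tfrc, Slc11a2, Slc40a1, Ftl1, Ireb2 and Fbxl5) the direction and the call were the same in all of them. Tfrc ranged from -1.81 to -1.65 on the log2 scale, and Slc11a2 from -1.24 to -0.92. The call of Steap3 was lost in 3 alternatives, that of Hfe was gained in 5, Fth1 was called higher in 3 and turned its sign in 3, and Aco1 turned its sign in 5 without being called.

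**Figure D5:**
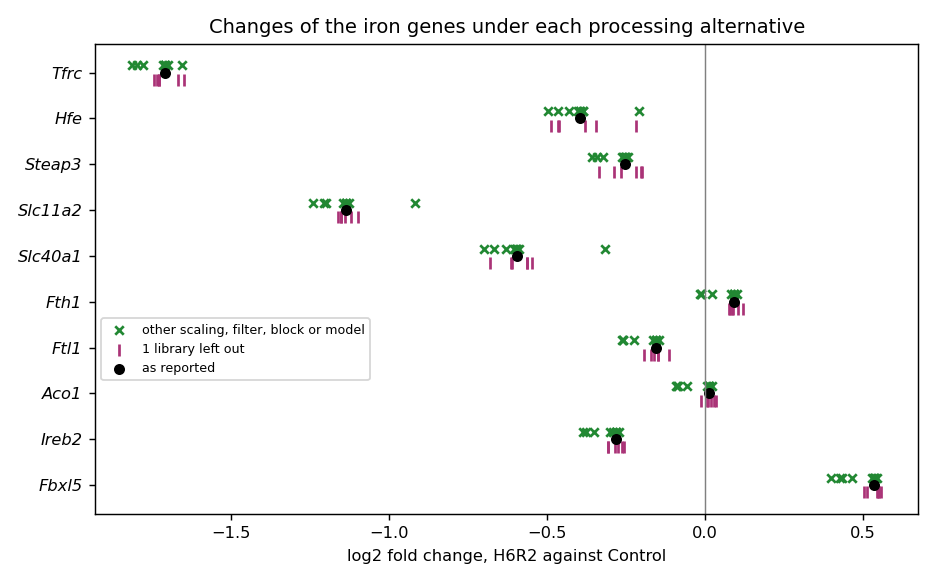
Log2 fold change of the 10 iron genes as reported (black points), under other scalings, filters, blocks or models (crosses) and with 1 library left out (vertical ticks). Points of Fth1 and Aco1 fall on both sides of 0, and those of the other members stay on one side.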

How the data were processed

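The authors extracted total RNA, made stranded mRNA libraries and mapped paired-end reads to GRCm38. Counts deposited by the authors are unnormalized whole reads per gene, made per the submitters' processing notes with featureCounts (Subread 1.5.1). The RPKM values deposited by the authors follow from count, gene length and library total (largest relative error 1.13e-06). These notes also name Trimmomatic 0.36 and edgeR 3.12.1. Here, counts were tested in R 4.3.3 with edgeR 4.0.16 (filterByExpr, TMM, robust quasi-likelihood, Benjamini-Hochberg over 14020 genes, threshold 0.05). Scaled counts are counts over the effective library size, times the mean of that size. RPKM was used only for levels across genes and, with limma 3.58.1, for alternatives on log2(RPKM + 1) and log2(RPKM + 0.1). Further alternatives were DESeq2 1.42.0, upper quartile scaling, library totals, no filter, a minimum of 10 counts in each library, the replicate block and each library left out.

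The members and gene lists were chosen with earlier results of these data known. Of each other list, the text names the 3 called genes with the largest change and no overlap between groups. Tfr2 and Hamp were named after their values were seen. Replicates differed beyond counting error (2.19 to 16.2 chi-square units per degree of freedom). Same-numbered libraries did not deviate together (correlations -0.062 to -0.00094), so numbers were not taken to pair libraries. Fits were tested on simulated data. Exon and UTR positions came from GENCODE M21, in which 208 of 210 member exons were identical, and promoters from RefSeq. Symbols turned into dates (24 rows) were kept in the fit. Erfe is in the tables, and was tested, under its older symbol Fam132b. Ftmt, Hjv (also listed as Hfe2), Bmp6, Flvcr1 and Flvcr2 were not analysed here.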

Additional observations from a re-analysis of the deposited data

How the results depend on the processing

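The number of members called was 7 and stayed between 6 and 8 in all 15 alternatives (6 to 8 with 1 library left out), and that of other iron genes was 63 and stayed between 60 and 64 (60 to 63). The members past both thresholds were 2, and 1 with limma-trend on log2(RPKM + 1), where Slc11a2 had -0.92, and 2 with any library left out. Over all genes, 1195 passed both thresholds, and 406 with limma-trend on log2(RPKM + 1). The share of calls that were higher was 49.4% with TMM and 37.9% with library totals alone (3346 higher, 5478 lower). With library totals alone, log2(RPKM + 1) and log2(RPKM + 0.1), the sign turned for Fth1 (-0.0130, -0.0116 and -0.0116), Aco1 (-0.0901, -0.0830 and -0.0887) and Steap2 (-0.0311, -0.0258 and -0.0302). Aco1 also turned with upper quartile scaling (-0.0555) and without Control replicate 2 (-0.0119, within a range of -0.0119 to 0.0371 with 1 library left out). With the replicate number as a block, 8 members and 63 other genes were called, the addition being Fth1 (0.0930, edgeR adjusted p = 0.0437), which was also called with DESeq2 (0.10, adjusted p = 0.0188) and without Control replicate 3 (0.12, edgeR adjusted p = 0.0247). Paired by number, the log2 difference of the Fth1 to Ftl1 ratio was 0.25 and that of Aco1 to Ireb2 0.30. Hfe was called with upper quartile scaling, library totals, both RPKM fits and without Control replicate 3 (adjusted p from 0.0244 to 0.0464). Of 27 other genes named by the rule, 26 kept their call in every alternative that gave a value, and Cul1 lost it in 4. The causes of these changes were not tested. Counts were lowest for Hfe, at 42 to 83 in a library, and its estimate had the largest SE of the members (0.19).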

Other observations

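The STEAP reductases, chosen for a closer look after their values were seen, went in different directions. Steap1 rose from 697, 646 and 711 counts in Control to 1003, 873 and 1006 in H6R2 (log2 fold change 0.63, edgeR adjusted p = 3.23e-11). Steap2 had 1306, 1378 and 1294 counts in Control and 1244, 1195 and 1368 in H6R2 and did not pass the test (0.07, edgeR adjusted p = 0.219), with a sign that turned under library totals alone. Steap3 and Steap4 were lower, at -0.25 and -3.97. In Control the sum of Steap4 counts was 144, and in H6R2 it was 8.

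Of the transferrin cycle, genes for endocytosis and sorting were also measured, and those named were likewise chosen after their values were seen. Picalm, which encodes a clathrin adaptor that helps bring the receptor into the cell, rose from 2121, 1941 and 1912 counts to 3410, 3301 and 3939 (log2 fold change 0.97, edgeR adjusted p = 1.50e-18). Snx3, which encodes a sorting nexin that returns the receptor to the cell surface, rose by 0.41 (edgeR adjusted p = 3.36e-09). Both were higher in each of the 3 H6R2 libraries than in any Control library, while Tfrc itself was lower in each. Slc39a14, which encodes the transporter ZIP14 for iron not bound to transferrin, was higher by 0.28 (edgeR adjusted p = 5.28e-06). Its groups overlapped in raw counts but not in scaled counts.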
